A study of Mus musculus with 384 samples.

Results

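The 33 genes described here encode the main building blocks of the epithelial basement membrane and of the hemidesmosome: 10 laminin chains, 6 collagen IV chains, 8 linkers, proteoglycans and other matrix proteins, 3 proteins of the Fraser complex, and 6 hemidesmosome proteins and laminin receptors. They were listed by symbol, with earlier results of these data known, and all 33 were found among 49585 genes counted. The basement membrane is a thin sheet of matrix under every epithelium. Laminin trimers, each of an alpha, a beta and a gamma chain, assemble on the cell surface, collagen IV forms another network, and nidogen, perlecan and agrin tie the networks together. In the adult mammary duct the basal (myoepithelial) cells sit on this sheet and most luminal cells do not touch it, while in the embryo the mammary bud grows down into the mesenchyme inside a basement membrane of its own.

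The study sorted mouse mammary cells into the 384 wells of a plate and made a cDNA library from each by a modified Smart-seq2 protocol. Embryonic cells came from the bud-containing skin of female embryos at embryonic day 14, of the Lgr5-EGFP-IRES-CreER reporter strain, and were taken from the CD49f Hi/Lgr5 Hi gate. Adult cells came from mammary glands of Rosa-tdTomato mice, whose age was not given in the sources used, and were taken as basal (CD24+CD29Hi) or luminal (CD24+CD29Lo). Strain and age thus differ together between embryonic and adult cells and cannot be told apart. Basal, luminal and embryonic wells also lay mostly in separate blocks of plate rows, so gate and plate row cannot be fully told apart. Cells positive for CD45, CD31 or CD140a (blood, endothelial and PDGFRA-positive mesenchymal cells) and dead cells had been excluded by the sort. CD49f and CD29 are the integrin subunits Itga6 and Itgb1, which form laminin receptors, so levels of those genes follow in part from the sort. Wells with at least 50000 reads on genes were kept, which left 347 cells: 36.6% embryonic, 31.1% basal and 32.3% luminal. A well of 50 cells from each gate served as a separate library.

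Nothing in the labels ties a well to an animal, so each gate counted as 1 sample, no test between gates was possible, and no p-value is given. Levels are CPM, the reads of a gene scaled to a common total of gene reads, for the summed cells of a gate, with exact Poisson 95% intervals. In such sums, and in the wells of 50 cells, fewer cells with a gene and less RNA per cell cannot be told apart. Shares of cells are given after thinning every cell to 50000 reads, with exact Clopper-Pearson intervals, and ratios with exact conditional intervals. All of these cover counting error only, and reads amplified by PCR without molecular identifiers are not independent molecules. A gene was counted as measured where it reached 5 CPM in either gate, and as higher or lower where it then differed at least 2-fold on the log2(CPM + 1) scale.

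Kept cells had between 52500 and 1836609 gene reads, with medians of 697578 in the embryonic, 450196 in the basal and 525176 in the luminal gate, and a median of 5515, 2798 and 3643 genes detected. All embryonic cells but 1 correlated best with the well of 50 embryonic cells, 98 basal cells with the basal well and 8 basal cells with the luminal well. At least 3 of 8 markers of the mammary bud were carried by 96.9% of embryonic cells and 3 of 8 basal markers by 86.1% of basal cells, while every luminal cell, and 32.4% of basal cells, carried 3 of 8 luminal markers. Of embryonic cells 72.4% also carried at least 3 luminal markers and 64.6% at least 3 basal markers. Of luminal cells 11.6% carried at least 3 basal markers. Of 8 fibroblast or mesenchyme markers, 8 reached 5 CPM in the embryonic gate, where their summed level ran from 0 through a median of 233 to 93936 CPM per cell and 69 cells carried at least 3 of them at 10 CPM or more. In the basal gate 5 of the 8 did so, with a median of 1673 and a highest cell of 21730.0 CPM, and 16 cells carried at least 3. Over the summed cells the list stood at 2516 CPM in the basal and 3923 CPM in the embryonic gate. Between these gates 5 of the 8 markers were higher and 2 lower in embryonic cells. In the luminal gate 3 of the 8 did so, with a median of 0 and a highest cell of 2997 CPM, and Lum had no read. All 8 endothelial markers reached 5 CPM in the basal gate, where their summed level ran from 0 through a median of 0 to 11316 CPM and 7 cells carried at least 3, against 1 of 8 in the embryonic and 1 of 8 in the luminal gate.

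The members as a group were highest in basal cells. Their summed level per cell ran from 506 through a median of 5477 to 21769 CPM in the basal gate, from 459 through 3351 to 9019 CPM in the embryonic gate, and from 1.46 through 1515 to 14357 CPM in the luminal gate. The ranges of the 3 gates overlapped. At equal depth a median basal cell showed reads of 12 members, a median embryonic cell 13 and a median luminal cell 6. These counts, and the shares of cells below, have no background over all genes at that depth. Without thinning, a median basal cell had 2798 genes detected, a median embryonic cell 5515 and a median luminal cell 3643. No member was seen in every cell of any gate, so the lowest cell is at 0 throughout and is not repeated below.

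Between embryonic and basal cells 31 members were measured: 6 were higher and 15 lower in the embryonic gate, where 33.8% of 12808 measured genes were higher and 19.4% lower. The members' median log2 ratio was -0.96, against 0.38 over all measured genes. Between embryonic and luminal cells 29 were measured, of which 16 were higher and 3 lower in the embryonic gate, against 39.3% and 17.6% of 12679 genes, with a median of 1.85 against 0.58. Between basal and luminal cells 28 were measured: 22 were higher in the basal gate and 1, Npnt, was lower, against 28.3% and 21.3% of 11885 genes, with a median of 2.29 against 0.14. The 3 comparisons share their gate sums and are not independent of each other. Scaling by trimmed means moved the median of all genes by -0.34, -0.51 and -0.15 in these comparisons. All genes then split 26.7% higher to 24.5% lower between embryonic and basal cells, where the members split 6 to 18, and 29.1% to 24.4% between embryonic and luminal cells, where the members split 15 to 4.

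**Figure D1:**
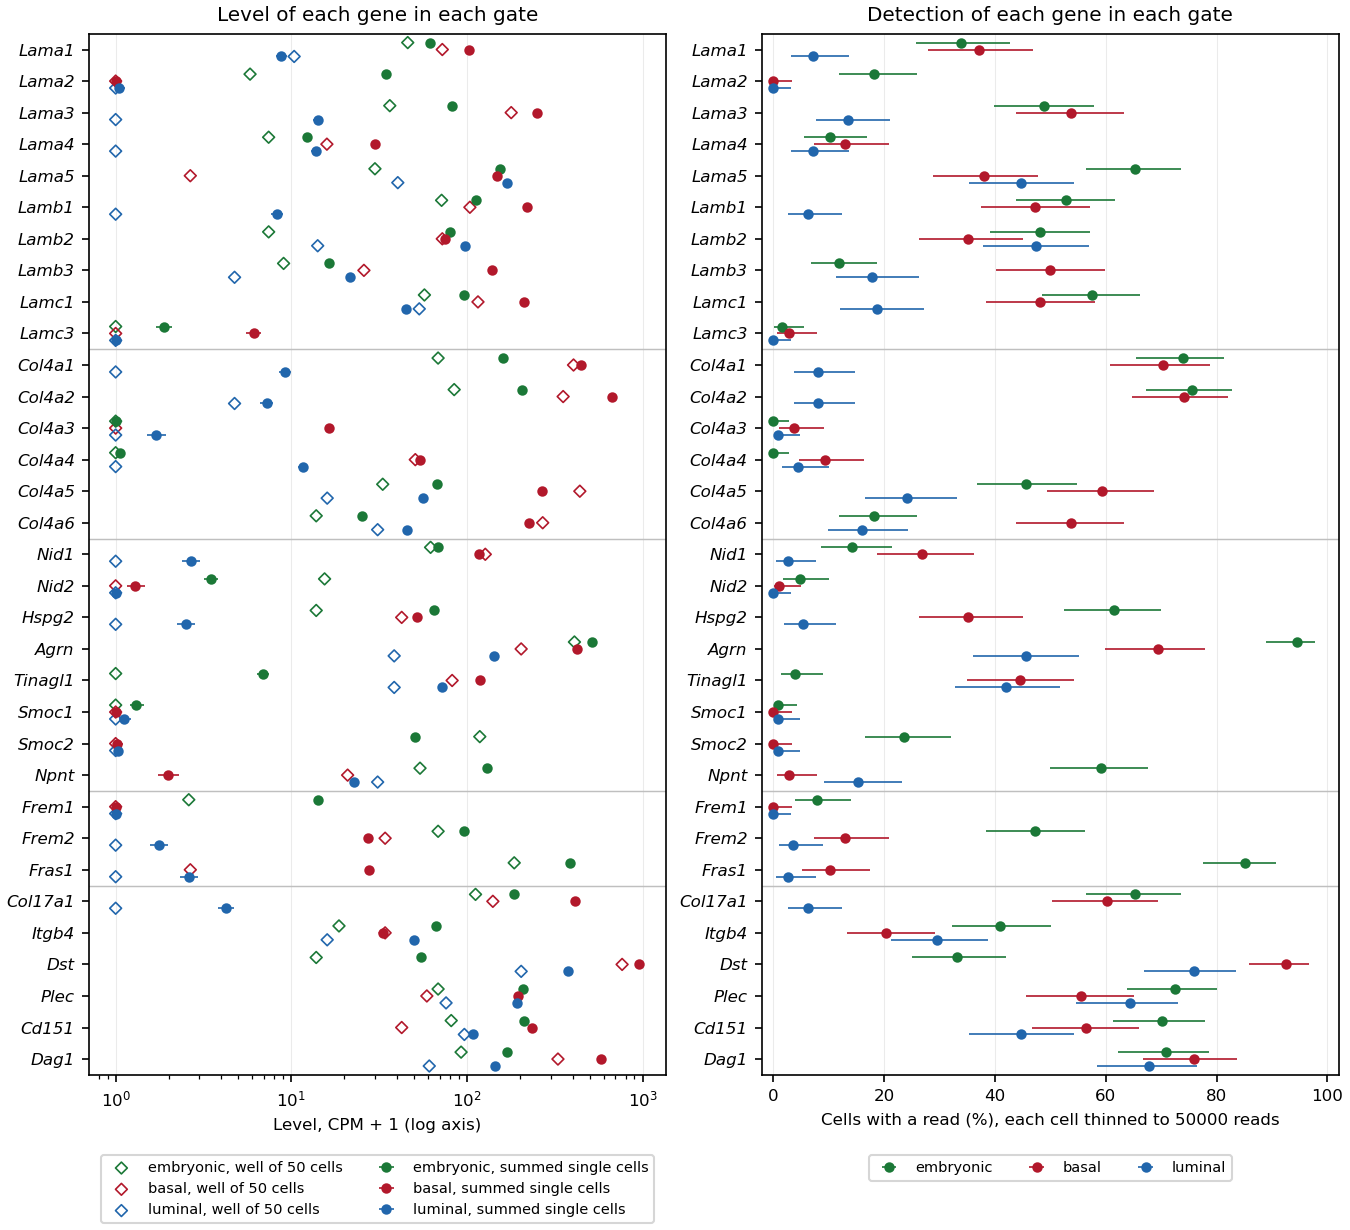
Left, level of each of the 33 genes in each gate in CPM plus 1 on a log axis: filled circles are summed single cells with Poisson 95% intervals, open diamonds the well of 50 cells of the same gate. Right, percent of cells with a read after thinning to 50000 reads, with Clopper-Pearson 95% intervals; all 6 collagen IV chains are highest in the basal gate in the left panel, and the 3 Fraser complex genes in the embryonic gate.

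Collagen IV is encoded by pairs of genes that lie head to head, each pair sharing the stretch of DNA between its starts. The stretches are shown because the members of a pair are compared below. Positions are on GRCm38, gene models are those of GENCODE M21, and sequences were taken from the RefSeq tables for build GRCm38.p6, written 5′ to 3′. Col4a1 (chr8:11198423-11312826, minus strand) and Col4a2 (chr8:11312805-11449287, plus strand) overlap by 22 bases at their starts. Col4a4 (chr1:82448423-82586849, minus strand) and Col4a3 (chr1:82586921-82722059, plus strand) have 71 bases between their starts. Col4a6 (chrX:141165403-141474076, minus strand) and Col4a5 (chrX:141475385-141689234, plus strand) have 1308 bases between theirs, of which the stretch nearest each start is given. Capitals mark matches, on either strand, to the GC box GGGCGG or the CCAAT box.
Col4a1 and Col4a2, chr8:11312805-11312826, plus strand: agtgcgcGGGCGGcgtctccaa
Col4a4 and Col4a3, chr1:82586850-82586920, plus strand: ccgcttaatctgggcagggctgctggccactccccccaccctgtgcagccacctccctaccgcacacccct
Col4a6, chrX:141474077-141474326, minus strand: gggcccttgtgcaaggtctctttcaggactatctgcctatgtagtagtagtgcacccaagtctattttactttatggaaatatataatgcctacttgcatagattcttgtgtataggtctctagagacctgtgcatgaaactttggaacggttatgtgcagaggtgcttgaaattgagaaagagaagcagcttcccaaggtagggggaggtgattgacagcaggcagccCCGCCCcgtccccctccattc
Col4a5, chrX:141475169-141475384, plus strand: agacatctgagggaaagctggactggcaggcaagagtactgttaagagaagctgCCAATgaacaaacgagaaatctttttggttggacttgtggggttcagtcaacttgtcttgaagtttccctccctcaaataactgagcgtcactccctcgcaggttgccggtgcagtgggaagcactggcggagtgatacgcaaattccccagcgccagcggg

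The Col4a6 match began 21 bases before the gene's start and the Col4a5 match 162 bases before its own. A GC box lies in 32.74% and a CCAAT box in 33.85% of 32851 windows of 250 bases before a start in the RefSeq table. Of 29 such windows used for 21 members, 15 held a GC box and 10 a CCAAT box. Member windows on chromosome 18, where Lama3 lies, were left out. The AP-1 site TGANTCA and the E-box CACGTG were searched in the same windows on both strands: 1 and 0 of the 29 held one, against 6.75% and 6.02% of all windows. These matches describe letters and not bound sites.

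All 6 collagen IV chains were lower in embryonic than in basal cells, with a median log2 ratio of -2.57, and all 6 were higher in basal than in luminal cells, with a median of 2.80. For all measured genes those shares were 19.4% and 28.3%. Col4a2, which encodes a chain of the most widespread collagen IV trimer, was the highest of all members per exon length in the basal gate, at 101.4 CPM per kb. Its level was 671 CPM in basal cells (664 to 678), 205 in embryonic (202 to 208) and 6.25 in luminal cells (5.67 to 6.87). Single cells had a median of 184 and a highest value of 9478 CPM in the basal gate, 124.98 and 1332 in the embryonic gate, and 0 and 522 in the luminal gate. The basal and embryonic ranges overlapped widely, and most luminal cells had no read. Col4a2 was 3.27-fold higher in basal than in embryonic cells (3.21 to 3.33) and 107.5-fold higher than in luminal cells (97.7 to 118.5). Without the top luminal cell, which held 33.7% of the luminal reads, the latter ratio was 161.

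Col4a1, which encodes the partner chain in that trimer, had the same order of gates: 446 CPM basal (440.0 to 451), 159.6 embryonic (157 to 162) and 8.19 luminal (7.53 to 8.90). Its highest cells reached 3063 CPM in the basal gate (median 92.9), 2623 in the embryonic gate (median 71.4) and 681 in the luminal gate (median 0). The share of cells with a read did not separate embryonic from basal cells: it was 74.02% (65.5 to 81.4%) and 70.4% (60.8 to 78.8%), against 8.04% of luminal cells (3.74 to 14.7%). Col4a1 and Col4a2 were read together in 58.3% of embryonic, 58.3% of basal and 3.57% of luminal cells. Thinning each cell to the same depth before summing brought the Col4a1 ratio between embryonic and basal cells under 2-fold, at -0.96 on the log2 scale against -1.48. Across basal cells the counts of this pair had a Spearman rank correlation of 0.47, the highest of 210 pairs of members compared in that gate, whose median was 0.11. Across embryonic cells the same pair had 0.14, where the median of 210 pairs was 0.07. The points share the plate and the depth after thinning. Both genes also share a start region, whose part was not tested.

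Endothelial marker counts moved with Col4a2. The 7 basal cells with at least 3 endothelial markers held 5.37% of the gate's reads and 20.1% of its Col4a2 reads, at 2512 CPM against 567 in the other basal cells. They held 7.49% of the Col4a1 reads and 0.249% of the Col17a1 reads. Without all cells that carried 3 fibroblast, endothelial or pericyte markers Col4a2 stood at -1.35 on the log2 scale between embryonic and basal cells, against -1.70, and each of the 15 members lower in that comparison was still at least 2-fold lower.

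Col4a5 and Col4a6, whose chains form a trimer known from basement membranes of skin and smooth muscle, separated the gates in another way. Col4a6 stood at 226 CPM in basal (222 to 230.1), 44.5 in luminal (42.9 to 46.1) and 24.3 in embryonic cells (23.3 to 25.4), with highest cells of 3317, 2027 and 735 CPM and medians of 15.1, 0 and 0. It was 9.29-fold higher in basal than in embryonic cells (8.88 to 9.73). Col4a5 stood at 266 CPM in basal (262 to 271), 66.7 in embryonic (65.04 to 68.4) and 54.9 in luminal cells (53.2 to 56.7), with highest cells of 2213, 905 and 1669 CPM and medians of 63.6, 6.52 and 0. Luminal cells kept a measurable level of both genes: 24.1% of them had a Col4a5 read and 16.1% a Col4a6 read. Col4a5 and Col4a6 were read together in 41.7% of basal (32.3 to 51.5%), 8.66% of embryonic (4.40 to 14.97%) and 3.57% of luminal cells (0.982 to 8.89%). The basal interval lay above the other 2.

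Col4a3 and Col4a4, known for the collagen of the kidney filter, came from few cells. Col4a4 had 52.9 CPM in the basal gate, from 12 cells, with 29.8% of its reads in 1 cell, and its highest cell reached 3129 CPM. The embryonic gate had 5 reads of it and the luminal gate 10.6 CPM, so that the basal level was 952-fold the embryonic level (407 to 2934). Col4a3 had 15.5 CPM in basal cells with 57.6% of the reads in 1 cell, 0.702 CPM in luminal cells and no read in embryonic cells, which makes basal at least 464-fold higher when the embryonic sum is set to a floor of 3 reads. The well of 50 basal cells had Col4a4 at 49.8 CPM and no read of Col4a3.

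**Figure D2:**
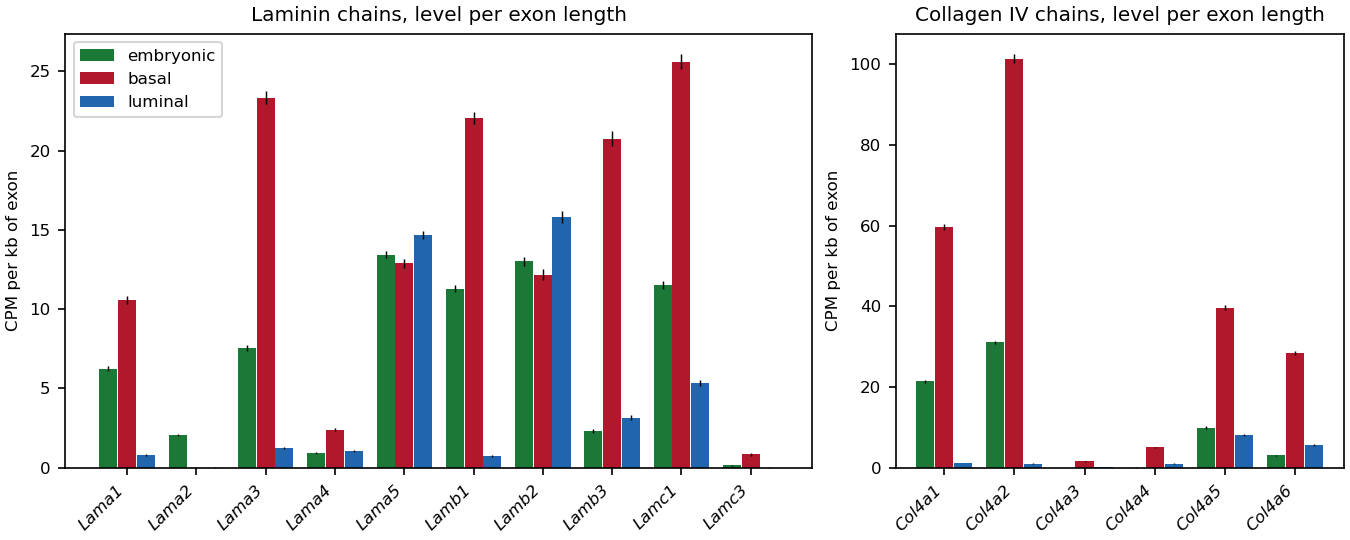
Level of the 10 laminin chains (left) and 6 collagen IV chains (right) in CPM per kb of exon in each gate; bars start at 0 and error lines are Poisson 95% intervals. In the basal gate Col4a2 reaches 101.4 CPM per kb and the tallest laminin bar is Lamc1 at 25.6 CPM per kb, while the Lama5 bars differ little between gates, from 12.9 to 14.7 CPM per kb.

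Of the 10 laminin chains, 1 was higher and 5 were lower in embryonic than in basal cells, 5 of 9 measured were higher in embryonic than in luminal cells, and 7 of 9 were higher in basal than in luminal cells. For all measured genes those shares were 33.8%, 19.4%, 39.3% and 28.3%. Lama3 and Lamb3 belong to the laminin that anchors hemidesmosomes. Lama3 had 251 CPM in basal cells (247 to 255), 80.98 in embryonic (79.1 to 82.9) and 13.2 in luminal cells (12.4 to 14.1), with medians per cell of 21.5, 13.8 and 0 and highest cells of 6252, 731 and 378 CPM. Basal cells carried a read in 53.7% (43.8 to 63.4%) and embryonic cells in 48.8% (39.9 to 57.8%), intervals that overlapped, and luminal cells in 13.4%. The level was 3.10-fold higher in basal than in embryonic cells (3.01 to 3.19) and 18.96-fold higher than in luminal cells (17.7 to 20.3).

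Lamb3 (chr1:193207699-193343878), the beta chain of that laminin, was low in the embryo. It stood at 137.1 CPM in basal (134.04 to 140.3), 20.7 in luminal (19.6 to 21.8) and 15.4 in embryonic cells (14.6 to 16.2). Per cell it reached 992 CPM in the basal gate with a median of 19.97, and 403 and 262 CPM in the embryonic and luminal gates with medians of 0. The basal level was 8.90-fold the embryonic level (8.40 to 9.43). Cells with a read made up 50% of basal (40.2 to 59.8%), 17.9% of luminal (11.3 to 26.2%) and 11.8% of embryonic cells (6.76 to 18.7%), and the last 2 intervals overlapped.

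Lama1 and Lamb1 with Lamc1 make the laminin of early embryos. Lamb1 had 219 CPM in basal (215 to 223), 111.8 in embryonic (109.7 to 114.03) and 7.29 in luminal cells (6.66 to 7.95), with medians of 6.004, 24.1 and 0 and highest cells of 5703, 1101 and 373 CPM. It was 30-fold higher in basal than in luminal cells (27.4 to 32.9) and 15.3-fold higher in embryonic than in luminal cells (14.03 to 16.8). Of its luminal reads 52.8% came from 1 cell, without which these ratios were 62.9 and 32.2. Lama1 had 102.3 CPM in basal (99.6 to 104.98), 60.4 in embryonic (58.8 to 62.1) and 7.78 in luminal cells (7.14 to 8.47), where 57.7% of its reads came from 1 cell. Its cells with a read made up 37.04% of basal (27.9 to 46.9%), 33.9% of embryonic (25.7 to 42.8%) and 7.14% of luminal cells (3.13 to 13.6%). The first 2 intervals overlapped and both lay above the luminal one. Lama1, Lamb1 and Lamc1 were read together in 13.4% of embryonic and 13.9% of basal cells, and in no luminal cell, which allows a share of up to 2.68% when a count of 0 is taken to allow 3 cells. Without thinning, 3 luminal cells had reads of all 3 chains. Scaling by trimmed means brought Lamb1 to -1.28 and Lama1 to -1.06 on the log2 scale between embryonic and basal cells, past 2-fold, from -0.96 and -0.75.

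Lamc1, the gamma chain shared by most laminins, had 212 CPM in basal (208 to 216), 95.1 in embryonic (93.1 to 97.2) and 44.1 in luminal cells (42.5 to 45.7). The luminal value rested on few cells: 76 had no Lamc1 read, 1 reached 10950.4 CPM, and 26.4% of all reads came from 1 cell. Its ratio of 2.16 between embryonic and luminal cells (2.07 to 2.25) turned to -0.54 on the log2 scale when cells were thinned to equal depth. The basal excess over luminal cells, 4.81-fold, then stood at 0.53 on the log2 scale, under 2-fold. Without the luminal cell that held most Lamc1 reads, and without thinning, the embryonic level was 2.93-fold and the basal level 6.52-fold the luminal level. Cells with a read made up 57.5% of embryonic (48.4 to 66.2%) and 18.8% of luminal cells (12 to 27.2%), and these intervals did not overlap.

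Lama5 (chr2:180176373-180225859) makes the laminin most adult epithelia use, and its summed level was close to equal in the gates. It stood at 167 CPM in luminal (164 to 170.2), 153 in embryonic (151 to 156) and 147 in basal cells (144 to 150.1). Medians per cell were 5.71, 70.97 and 0, and the highest cells 1603, 1693 and 3826 CPM. More embryonic cells carried a read, 65.4% (56.4 to 73.6%), than luminal, 44.6% (35.2 to 54.3%), or basal cells, 37.96% (28.8 to 47.8%). The well of 50 basal cells had 1.66 CPM, below the 28.9 and 39.4 CPM of the embryonic and luminal wells. The 7 basal cells with endothelial markers held 14.8% of the gate's Lama5 reads, at 406 CPM against 132.1 in the rest, and their part in the difference between wells and single cells was not tested. Lamb2, a beta chain that can pair with Lama5, stood at 96.3 CPM luminal, 79.1 embryonic and 74.1 basal, with 47.3%, 48.03% and 35.2% of cells, but in the wells of 50 cells at 13.1, 6.43 and 71.4 CPM.

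Lama2 and Lama4, chains known from muscle, nerve and vessel walls, were sparse. Lama2 had 3010 reads in the embryonic gate, or 33.5 CPM (32.3 to 34.7), in 33 cells up to 729.7 CPM, no read in basal and 3 reads in luminal cells. It was at least 609-fold higher in embryonic than in basal cells, with the basal sum set to 3 reads, and 763-fold higher than in luminal cells (261 to 3700.1). Lama4 had 28.9 CPM in basal, 12.8 in luminal and 11.3 in embryonic cells, and 83.8% of its embryonic reads lay in the 69 cells with at least 3 fibroblast markers, which held 57.3% of the gate's reads. Thinned to equal depth, Lama4 stood at -0.81 on the log2 scale between basal and luminal cells, against 1.11, and at -0.51 between embryonic and basal cells, against -1.28. In the luminal gate 1 cell reached 3379 CPM of Lama4, where the mean over cells was 40.3 CPM, against 24.4 CPM in the basal gate. The part of that cell in the change of sign was not tested. Lamc3 had 5.11 CPM in basal cells, with 77.4% of the reads in 1 cell, 0.879 CPM in embryonic cells and no luminal read. Without the top cell of each gate its log2 ratio between embryonic and basal cells was -0.70, against -1.70.

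The Fraser complex genes differed the other way from collagen IV: all 3 were higher in embryonic than in basal cells and all 3 were higher in embryonic than in luminal cells. For all measured genes those shares were 33.8% and 39.3%. Fras1, Frem1 and Frem2 proteins sit together in the embryonic basement membrane and hold epithelium to mesenchyme. Fras1 (chr5:96373955-96784728) had 385 CPM in embryonic cells (381 to 389), 26.7 in basal (25.4 to 28.2) and 1.62 in luminal cells (1.34 to 1.96). Embryonic cells had a median of 309 and a highest value of 3499 CPM with 14 cells at 0, whereas 12 basal and 7 luminal cells had any read and the highest of them reached 2979.7 and 268 CPM. After thinning, 85.04% of embryonic cells (77.6 to 90.7%), 10.2% of basal (5.20 to 17.5%) and 2.68% of luminal cells (0.556 to 7.63%) carried a read. The level was 14.4-fold higher in embryonic than in basal cells (13.7 to 15.2) and 237-fold higher than in luminal cells (197 to 288). Of the luminal Fras1 reads 50.5% lay in 1 cell, without which the ratio of embryonic to luminal cells was 475. In the wells of 50 embryonic, basal and luminal cells Fras1 stood at 185, 1.66 and 0 CPM, embryonic again highest, while in plate rows with both gates the log2 ratio of basal to luminal cells was 0.83, against 3.40.

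Frem2 had 94.98 CPM in embryonic (92.98 to 97.02), 26.4 in basal (25.04 to 27.8) and 0.761 in luminal cells (0.568 to 0.998), with 47.2%, 12.96% and 3.57% of cells. Its highest basal cell, at 2514 CPM, exceeded the highest embryonic cell, at 984 CPM. Between these gates its log2 ratio of 1.81 was 0.73, under 2-fold, when cells were thinned. Frem1 had 13.2 CPM, from 14 embryonic cells with 35.1% of the reads in 1 of them, and no read in either adult gate, at least 240.2-fold above basal and at least 301-fold above luminal cells with those sums set to 3 reads. Within plate rows that held both gates the Frem1 log2 ratio between embryonic and basal cells was 0.54, against 3.83. Of the Frem1 reads, 88.6% lay in the 69 embryonic cells with fibroblast markers, at 20.4 CPM against 3.52 in the rest. For Fras1 that share was 55.3%, near the 57.3% of all reads those cells held, and its level was 371 CPM in them against 403 in the rest.

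Npnt (nephronectin, chr3:132881745-132950291), a basement membrane ligand of the integrin of Itga8, stood at 128.6 CPM in embryonic (126.3 to 130.99), 21.7 in luminal (20.6 to 22.8) and 0.990 in basal cells (0.744 to 1.29). Embryonic cells had a median of 21.3 and a highest value of 2037 CPM, luminal cells a highest value of 668 CPM, and 6 basal cells had any read. Npnt was 129.9-fold higher in embryonic than in basal cells (99.5 to 173) and the 1 member lower in basal than in luminal cells, by 21.9-fold (16.7 to 29.3). A single cell held 40.998% of the luminal Npnt reads, without which the ratio of luminal to basal cells was 13.1. Another held 72.2% of the basal reads, without which that ratio was 78.01 and the ratio of embryonic to basal cells 462. The wells of 50 cells lay closer together: 53.1 CPM embryonic, 30.03 luminal and 19.9 basal, or 0.80 between embryonic and luminal and -0.57 between basal and luminal wells on the log2 scale, both within 2-fold. Fras1 and Npnt were read together in 57.5% of embryonic cells (48.4 to 66.2%) and in 1 basal and 1 luminal cell. Across embryonic cells their Spearman correlation was 0.40, the highest of 210 pairs there, whose median was 0.07.

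Among the linkers, Agrn and Hspg2 each differed by less than 2-fold between the summed embryonic and basal cells, and in the wells of 50 cells their embryonic to basal ratios were 1.01 and -1.62 on the log2 scale. Agrn (agrin, chr4:156165290-156197488), a heparan sulfate proteoglycan that binds laminin and dystroglycan, had 517 CPM in embryonic (512 to 522), 423 in basal (417 to 428) and 142 in luminal cells (139 to 145). Medians per cell were 403, 118.1 and 12.98 CPM and the highest cells 2362, 5074 and 5818 CPM. It was the member found in the largest share of embryonic cells, 94.5% (88.97 to 97.8%), against 69.4% of basal and 45.5% of luminal cells. Hspg2 (perlecan) had 63.6 CPM embryonic, 50.8 basal and 1.51 luminal, with 61.4%, 35.2% and 5.36% of cells, and was 33.7-fold higher in basal than in luminal cells (27.7 to 41.4). Of its luminal reads 68.9% lay in 1 cell, without which the ratio was 107.4.

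Nid1, the nidogen that bridges laminin and collagen IV, had 115.8 CPM in basal (113.01 to 118.7), 67.1 in embryonic (65.4 to 68.8) and 1.68 in luminal cells (1.39 to 2.02). Its embryonic reads came from 29 cells, up to 1327 CPM, and its basal reads from 33, up to 3352 CPM. The 69 embryonic cells with fibroblast markers held 93.4% of its embryonic reads, at 109.3 CPM against 10.4 in the rest. Without cells carrying 3 markers of fibroblasts, endothelium or pericytes its log2 ratio between embryonic and basal cells was -3.01, past 2-fold, against -0.78 with them, and between embryonic and luminal cells 2.08 against 4.67. Nid2, the other nidogen, stayed below the minimum, at 2.49 CPM in embryonic cells.

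Tinagl1 (chr4:130164454-130175122), which encodes a secreted matrix protein related to tubulointerstitial nephritis antigen, was found mainly in adult cells. It had 118.1 CPM in basal (115.3 to 121.1), 70.8 in luminal (68.8 to 72.8) and 5.90 in embryonic cells (5.41 to 6.43), with highest cells of 1466, 1349 and 484 CPM. The shares of cells were 44.4%, 41.96% and 3.94%, and basal was 20.01-fold (18.3 to 21.9) and luminal 11.98-fold (10.95 to 13.1) the embryonic level. Without 1 embryonic cell, which held 36.2% of the embryonic reads, these ratios were 31.2 and 18.7. Smoc2, a calcium-binding matrix protein, was found almost entirely in embryonic cells, with 4473 reads or 49.7 CPM (48.3 to 51.2) from 50 cells up to 2172 CPM, against 1 read in basal and 2 in luminal cells. Against the basal read the ratio was 2713 (487 to 107190). Smoc1 was not measured, with 0.311 CPM at most.

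**Figure D3:**
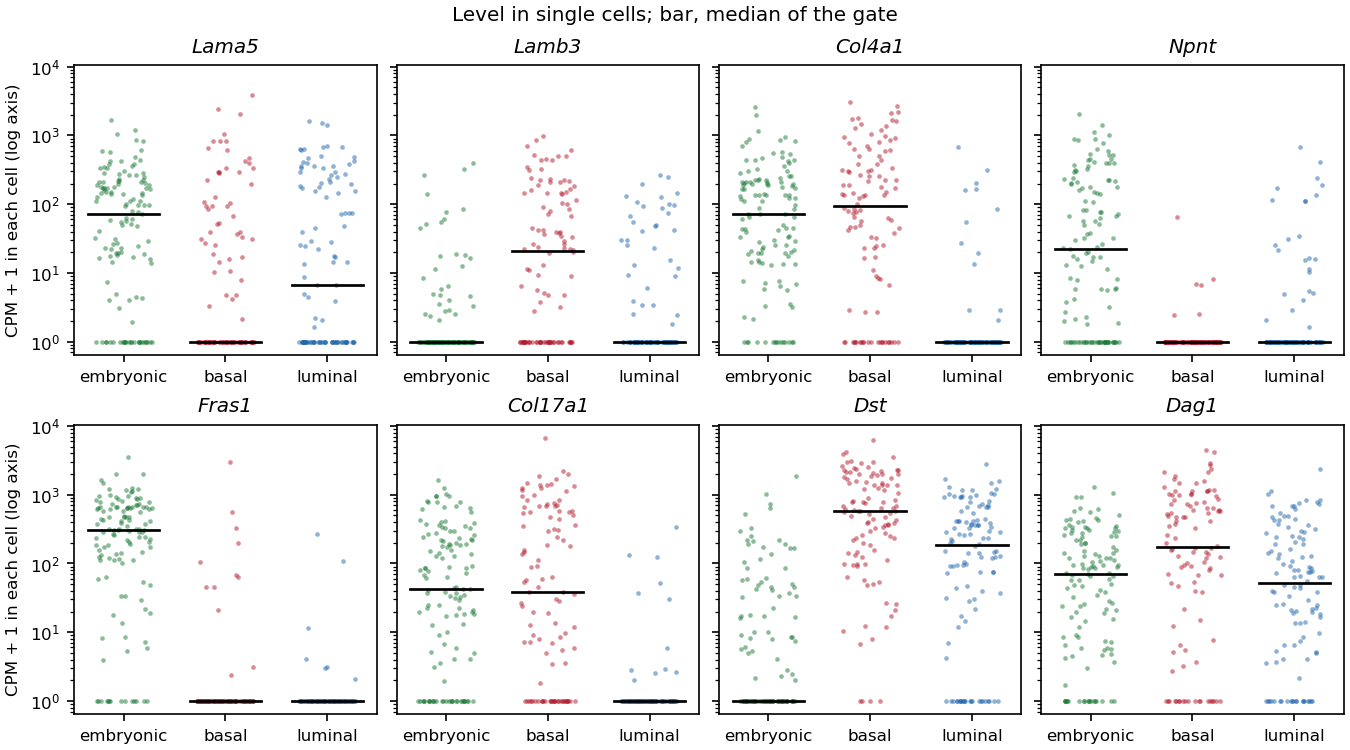
Level of 8 members in single cells of the embryonic, basal and luminal gates, CPM plus 1 on a log axis, with a bar at the median. Fras1 and Npnt are spread over embryonic cells and at 0 in most adult cells, Col4a1 and Col17a1 are at 0 in most luminal cells, and Dst is present in nearly all basal cells with a median of 571 CPM.

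Hemidesmosomes rivet basal cells to the basement membrane through Col17a1 and the integrin of Itga6 and Itgb4, with the plakins Dst and Plec linking to keratins inside. Of the 6 members in this class none was higher and 3 were lower in embryonic than in basal cells, and 4 were higher in basal than in luminal cells. For all measured genes those shares were 33.8%, 19.4% and 28.3%. Col17a1 (chr19:47646344-47692094) had 412 CPM in basal (406 to 417), 184 in embryonic (181 to 187) and 3.23 in luminal cells (2.82 to 3.69). Medians per cell were 37.2, 40.9 and 0 and the highest cells 6747, 1624 and 335 CPM. The share of cells with a read was 65.4% in embryonic (56.4 to 73.6%) and 60.2% in basal cells (50.3 to 69.5%), which overlap, and 6.25% in luminal cells (2.55 to 12.5%). The level was 127.3-fold higher in basal than in luminal (111.5 to 146) and 56.8-fold higher in embryonic than in luminal cells (49.8 to 65.2). Between embryonic and basal cells the log2 ratio was -1.16, and -0.33 in the wells of 50 cells. The 8 basal cells that correlated best with the luminal well held 11.6% of the reads of the gate and 0.0223% of its Col17a1 reads.

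The stretch before the start of Col17a1 is shown because 2 matches to the TATA box TATAAA, in capitals, lie within it. They began 88 and 39 bases before the gene's start. Of the 29 member windows 1 held that box, against 12.37% of all windows searched on both strands.
Col17a1, chr19:47692095-47692292, minus strand: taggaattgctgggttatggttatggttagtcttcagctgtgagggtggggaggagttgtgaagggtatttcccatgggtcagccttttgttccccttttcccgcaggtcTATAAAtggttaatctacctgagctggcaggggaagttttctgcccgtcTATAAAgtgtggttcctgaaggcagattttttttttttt

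Dst (dystonin, chr1:33908225-34308661), a very long plakin gene with epithelial, muscle and neuronal forms that these counts do not separate, had 951 CPM in basal (943 to 959), 376 in luminal (372 to 381) and 53.6 in embryonic cells (52.1 to 55.2). Medians per cell were 571, 184 and 0 and the highest cells 6305, 2839.8 and 1867 CPM, and 4 basal cells had no read. The shares of cells, 92.6% of basal (85.9 to 96.7%), 75.9% of luminal (66.9 to 83.5%) and 33.1% of embryonic cells (24.98 to 41.97%), had intervals that did not overlap. Basal was 17.7-fold (17.2 to 18.3) and luminal 7.01-fold (6.80 to 7.23) the embryonic level. Over its long exons Dst had 23.1 CPM per kb in basal cells, below Col4a2 at 101.4 and Dag1 at 91.5 CPM per kb.

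Plec (plectin, chr15:76170974-76232574) stood at 208 CPM in embryonic (205 to 211.4), 193 in basal (189.8 to 197) and 191 in luminal cells (187 to 194), with 72.4%, 55.6% and 64.3% of cells. Medians per cell were 105.5, 18.8 and 60.8 CPM. Itgb4, the integrin subunit found in hemidesmosomes, had 65.3 CPM in embryonic, 48.8 in luminal and 32.3 in basal cells, with 40.9% (32.3 to 50.02%), 29.5% (21.2 to 38.8%) and 20.4% (13.2 to 29.2%) of cells. Its summed level was thus lowest in the gate where Col17a1 and Dst were highest, but the well of 50 basal cells had 33.2 CPM against 17.7 in the embryonic and 15.01 in the luminal well. The ratio of 2.02 between embryonic and basal cells (1.92 to 2.14) lay just under the limit on the log2(CPM + 1) scale. Itgb4, Col17a1, Dst and Plec were read together in 12.04% of basal (6.57 to 19.7%), 9.45% of embryonic (4.98 to 15.9%) and 1.79% of luminal cells (0.217 to 6.30%).

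Cd151, a tetraspanin that binds laminin-binding integrins, had 235 CPM in basal (231 to 239), 210.5 in embryonic (207 to 213) and 107.4 in luminal cells (104.9 to 109.9). Per exon length it was the highest member in embryonic cells, at 76.8 CPM per kb, and in luminal cells, at 39.2 CPM per kb. Between basal and luminal cells its log2 ratio of 1.12 turned to -1.19 in the wells of 50 cells, it was 0.98 under trimmed means, and the 7 basal cells with endothelial markers held 13.8% of its basal reads. Dag1 (dystroglycan, chr9:108204634-108263958), a laminin receptor outside the hemidesmosome, had 582 CPM in basal (576 to 588), 167 in embryonic (165 to 170.0) and 143 in luminal cells (140.0 to 146). Medians per cell were 173, 69.3 and 51.2 and the highest cells 4450.0, 1306 and 2399.7 CPM. Its shares of cells, 75.9% basal (66.7 to 83.6%), 70.9% embryonic (62.1 to 78.6%) and 67.9% luminal (58.4 to 76.4%), overlapped, while the level was 3.48-fold higher in basal than in embryonic cells (3.41 to 3.55).

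Of the 21 members called between embryonic and basal cells 19 had the same sign in the wells of 50 cells, as did 18 of 19 between embryonic and luminal cells and 20 of 23 between basal and luminal cells. The same share over all called genes is not given here, so these counts have no background. Some signs rest on few reads: the embryonic and basal wells had 1 and 0 of Frem1, and 3 and 0 of Lama2.

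Among luminal cells, members differed in how they went with genes that mark the known luminal kinds, Esr1 and Prlr for hormone-sensing cells and Csn3 and Elf5 for secretory progenitors. Across luminal cells thinned to equal depth, Spearman's correlation with Esr1 was 0.56 for Lama5, 0.55 for Dst, 0.49 for Plec and 0.36 for Itgb4. With Csn3 it was -0.51, -0.53, -0.49 and -0.25 for the same genes, and with Elf5 -0.36, -0.32, -0.39 and -0.09. With Prlr it was 0.47, 0.47, 0.51 and 0.31. The other 6 members seen in at least 20% of luminal cells lay between -0.05 (Agrn) and 0.20 (Cd151) with Esr1. Ntn1 of the wider list had -0.46 with Esr1. Esr1 itself had 0.63, and Csn3 -0.53, with the number of genes detected per cell, and Lama5, Dst, Plec and Itgb4 had 0.45, 0.51, 0.56 and 0.35 with it. The part of that number in these correlations was not tested.

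**Figure D4:**
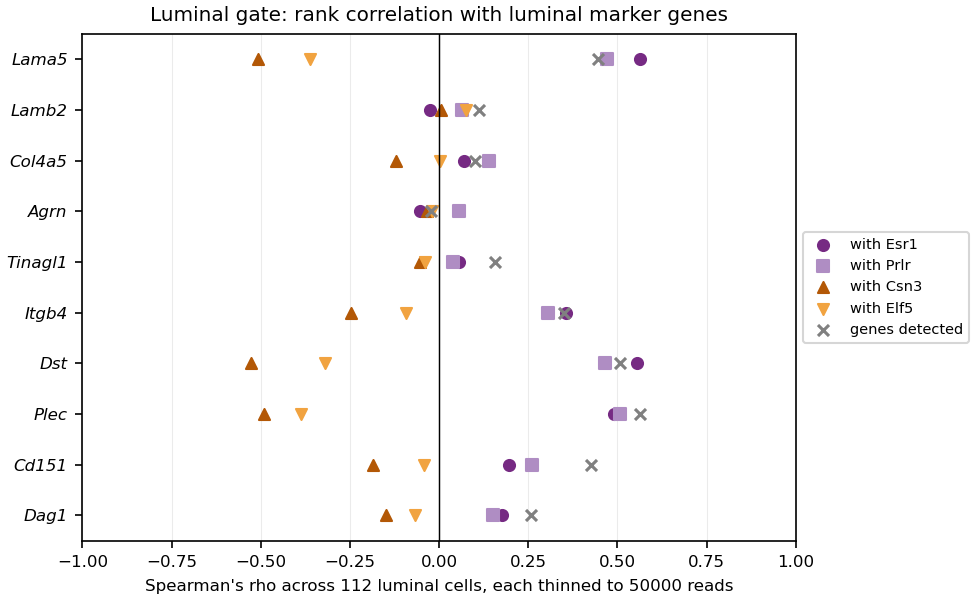
Spearman's rho across luminal cells between each of the 10 members read in at least 20% of them and Esr1, Prlr, Csn3, Elf5 and the number of genes detected, after thinning to 50000 reads. Lama5, Dst, Plec and Itgb4 lie right of 0 with Esr1 and left of 0 with Csn3, and right of 0 with genes detected.

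Among basal cells the members that went most with Acta2, a contractile gene of myoepithelium, were Lama1 (0.46), Lamb3 (0.44), Col4a1 (0.44), Col17a1 (0.40) and Lama3 (0.39). Col17a1 also had 0.46 with Krt14. Nid1, Cd151, Lama5 and Tinagl1 lay between 0.06 (Lama5) and 0.10 (Nid1) with Acta2. Acta2 itself had 0.37 with the number of genes detected, whose part was not tested. The 8 basal cells that correlated best with the luminal well were kept in these correlations. In them Lama1, Lamb3, Col4a1, Col17a1 and Lama3 stood at 0.948, 19.3, 127.8, 0.790 and 1.26 CPM. The other basal cells had 115.6, 152.6, 487, 466 and 284 CPM. The part of a mixture of cell kinds in the gate was not tested. Among embryonic cells the highest correlation of a member with Krt14 was that of Fras1, at 0.37.

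Wider lists of genes of the same pathway were read beside the members. Their counts stand beside the shares over all measured genes. Between embryonic and basal cells 33.8% of those genes were higher and 19.4% lower. The shares were 39.3% and 17.6% between embryonic and luminal cells, and 28.3% and 21.3% between basal and luminal cells. Of 20 other basement membrane components and receptors, 15 were measured between embryonic and basal cells, with 2 higher and 5 lower and a median log2 ratio of -0.55, 10 of 15 were higher and 2 lower in embryonic than in luminal cells, and 10 of 16 were higher and 1 lower in basal than in luminal cells. Sparc, a collagen-binding matrix protein, stood at 6105 CPM in basal, 1325 in embryonic and 72.9 in luminal cells. Itga6, in the same order, stood at 969.6, 997 and 379 CPM and Itgb1 at 370.1, 252 and 286 CPM. Against the sign of the list's median, Col18a1, a basement membrane collagen that carries heparan sulfate, had 235 CPM in embryonic cells against 45.5 in basal, and Fbln1 195 against 46.1. Ntn1 was the 1 gene of the list lower in basal than in luminal cells, at 1.47 against 66.5 CPM.

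Of 12 genes for folding and secretion of collagen IV, 8 of 11 measured were higher in basal and 6 of 12 were higher in embryonic than in luminal cells, with none lower, while 2 were higher and 1 lower in embryonic than in basal cells. The 6 of 12 were 50%, against 39.3% of all measured genes. P4hb, a subunit of prolyl hydroxylase, stood at 686 CPM in luminal, 674 in embryonic and 453 in basal cells. Serpinh1, the collagen chaperone, had 121.5 CPM embryonic, 45.6 basal and 5.38 luminal. Ppib had 202, 130.4 and 89.6 CPM in basal, embryonic and luminal cells and Colgalt1 108.7, 55.5 and 29.8 CPM. Plod1, a lysyl hydroxylase, was the 1 gene lower in embryonic cells, at 35.6 CPM, than in basal cells, at 104.2 CPM.

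Of 13 proteases and inhibitors of the membrane, 9 were measured between embryonic and basal cells, with 1 higher and 4 lower, 2 of 8 were higher and 2 lower in embryonic than in luminal cells, and 5 of 9 were higher and 1 lower in basal than in luminal cells. Between embryonic and luminal cells 25% were thus higher and 25% lower, against 39.3% and 17.6% of all measured genes. Mmp2, a protease that cleaves collagen IV, had 872 CPM in basal, 263 in embryonic and 10.8 in luminal cells. In that order Timp3, a protease inhibitor held in the matrix, had 298, 29.9 and 23.9 CPM, Timp2 285, 164 and 210.8 CPM, and Adamts1 225, 19.2 and 48.9 CPM. Mmp14, a membrane-bound protease, at 195 CPM in embryonic and 80.9 in basal cells, went against the list's median, and so did Mmp15 between basal and luminal cells, at 20.3 and 53.3 CPM.

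Of 16 dystroglycan-complex and glycosylation genes, 3 were higher and 6 lower in embryonic than in basal cells, 7 of 15 were higher and 1 lower in embryonic than in luminal cells, and 6 of 14 were higher in basal than in luminal cells with none lower. The 7 of 15 were 46.7%, against 39.3% of all measured genes. Utrn (utrophin) had 216, 189 and 154 CPM in embryonic, basal and luminal cells, Sntb2 62.4, 151 and 93.9, Dmd (dystrophin) 37.7, 79.5 and 10.5, and Dtnb 69.9, 68.2 and 35.6 CPM. Among the genes higher in embryonic than in basal cells were Sgce, at 59.9 CPM against 3 reads, and Sgcd, at 13.8 CPM against no read.

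Of 8 keratinocyte adhesion partners, 1 was higher and 5 lower in embryonic than in basal cells, 7 were higher and 1 lower in embryonic than in luminal cells, and 7 were higher in basal than in luminal cells with none lower. Krt14, a keratin of basal epithelium, had 2193, 1009 and 36.6 CPM in basal, embryonic and luminal cells, Krt17 938, 129.03 and 11.5, Krt5 747, 303 and 7.32, and Trp63, a transcription factor of basal epithelia, 481, 235 and 2.78 CPM. Krt15, at 331 CPM in embryonic and 39.97 in basal cells, went against the list's median, and so did Itga2 between embryonic and luminal cells, at 2.02 and 7.23 CPM.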

How the data were processed

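Counts per gene and well were deposited by the authors as 1 table of 384 wells, with spike-ins as separate rows. The submitters' processing notes name cutadapt 1.13, STAR 2.5.2b, HTSeq 0.6.0 and build GRCm38; the sources used do not give their options, the annotation or the strand setting. Without strand, exons that overlap another gene cannot be told apart: at most 8.45% of a member's exon bases (Nid2) did so. Of 49585 identifiers 49326 matched a GENCODE M21 gene, 43749 of them with their version.

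Wells with fewer than 50000 gene reads were left out (10 embryonic, 10 basal, 9 luminal), as were 4 wells with no cell and 1 whose labels disagree. No doublet caller was run, since each well was sorted as 1 cell. Reads were summed per gate and divided by the gate's gene reads; log2 ratios used a prior of 1 CPM. CPM per kb used the union of exons. The calls and ratio intervals were tested on simulated Poisson counts with known fold changes. Those counts hold no spread between cells and no PCR copies, so the test does not cover either. Members and lists were chosen with earlier results of these data known. All measured members are named; those at 100 CPM or more in any gate, or 8-fold apart, were given with intervals, cell range and share where room allowed, and the 4 genes of highest CPM in each list with those against its median; some genes of these lists are counted but not reported here by name. Ratios were recomputed with stricter cell filters, other means, thinning, edgeR's trimmed means (edgeR 4.0.16, R 4.3.3), median-of-ratios factors, other priors and minimum levels, the wells of 50 cells and subsets of cells; leaving the top cell out of 1 gate only was added after seeing the data. Other steps used Python 3.11.15 with numpy 2.4.6, pandas 2.3.3 and scipy 1.17.1.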

Additional observations from a re-analysis of the deposited data

Results flagged for a closer look

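The well whose labels name both the luminal and the embryonic gate was in no comparison. It held 1516 reads on 11 of the 33 members, out of 774060 gene reads, or 1958 CPM, whereas the 4 wells without a cell held 34 to 563 gene reads and 1 member read in all. Its highest members were Col4a5 at 738 CPM, Dag1 at 563 CPM, Lama3 at 251 CPM and Plec at 113.7 CPM. Fras1, Npnt, Col4a1 and Col17a1 had no read in it.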

How the results depend on the processing

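The members' counts, medians and log2 ratios between gates were recomputed under 14 other settings. Correlations, levels per kb, shares of cells with genes read together and counts of the wider lists were not. The counts and medians of members kept their direction in all of them. Between embryonic and basal cells, members higher ranged from 5 to 7, members lower from 13 to 18, and the median from -1.33 to -0.78. Between embryonic and luminal cells the median was 1.09 with no minimum level and 2.48 without the top cell of each gene, against 1.85, and 6 members in place of 3 were lower without cells carrying fibroblast, endothelial or pericyte markers. Between basal and luminal cells 2 members were lower in the wells of 50 cells and 3 in plate rows that hold both gates (24 basal and 17 luminal cells), against 1. The median share of cells with a read, over members and gates, was 24.1%, 13.4% when 5 reads were required and 36.6% without thinning. Members past 2-fold whose sign turned were Lamc1 between embryonic and luminal cells (-0.59 by the mean of per-cell CPM, -0.54 after thinning), Lama4 between basal and luminal cells (-0.70 and -0.81 under the same settings, -1.85 in shared plate rows) and Cd151 between basal and luminal cells (-1.19 in the wells of 50 cells); the cause was not tested. No paired analysis was possible because the labels give no replicate numbers shared between gates. Depth limits the rest: a count of 0 among the basal cells allows a share of up to 2.78% of them with a read (3 cells of the total), and the intervals leave out the spread between animals, which these data do not hold.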
